A study of Mus musculus with 6 samples.

Results

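The genes described here carry the IRE1 and ATF6 branches of the unfolded protein response, and were read from RNA-seq of mouse C57/B6 fetal liver cells. They are Xbp1, Ern1, Atf6, Atf6b, Herpud1, Sel1l, Syvn1, Edem1, Creld2 and Sdf2l1, and they make up 10 of the 54232 gene IDs counted. They were named by symbol and not by a cut on any measured value, but with earlier results of these data known. Livers were taken at E13.5 and only Ter-119 negative cells were kept, which leaves out most late red cell precursors. The 30 h group holds 3 libraries of these cells after culture in medium with erythropoietin, the hormone of red cell production, with the solvent DMSO added at 24 h. Its DMSO served as the control for a caspase inhibitor, whose libraries were not analysed here. The day 0 group holds 3 libraries of the untreated purified cells. The 30 h cells thus differed from day 0 cells in culture time, erythropoietin and DMSO together, and these cannot be told apart. The labels give no transgene and no genetic change in either group.

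The endoplasmic reticulum (ER) folds secreted and membrane proteins, and sensors in its membrane respond when unfolded proteins build up. IRE1, encoded by Ern1, cuts a short stretch out of the Xbp1 mRNA, which shifts the reading frame and yields the active transcription factor XBP1s. ATF6 travels to the Golgi, where the proteases encoded by Mbtps1 and Mbtps2 release its transcription factor part. Both factors raise genes of protein folding and of ER-associated degradation, the route by which misfolded proteins leave the ER for the proteasome. The PERK branch instead phosphorylates eIF2α and raises translation of ATF4, but other eIF2α kinases do the same, among them the heme-sensing kinase HRI of red cell precursors. Target genes of IRE1 and ATF6 are therefore read beside ATF4 targets to tell ER stress from other causes of ATF4 activity. IRE1 signalling itself is read from the cut Xbp1 mRNA, which gene counts do not separate from the uncut one.

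The stretch that IRE1 excises is shown because its removal, and not the amount of Xbp1 mRNA, carries that signal. It lies in exon 4 of the 5 exons of transcript Xbp1-201 at chr11:5524279-5524304 (GRCm38, forward strand, GENCODE M21 transcripts), and a script found it as the 26 bases between a pair of sites with the letters CNGCAGC. It was present in 3 of the 4 annotated Xbp1 transcripts. It is printed below in capitals with the bases around it.
Xbp1: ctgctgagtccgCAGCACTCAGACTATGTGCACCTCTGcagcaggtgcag

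Upstream sequence is shown for the genes in the list that hold a whole ER stress element, the DNA motif through which ATF6, with the factor NF-Y, acts on its targets. Windows from 250 bases before to 50 after the RefSeq start (GRCm38.p6) were found for 9 of the 10 genes, the exception being Atf6, and were searched on both strands. The ER stress element, CCAAT and CCACG with 9 bases of any kind between them, was found upstream of Creld2 and Syvn1. Its variant form, ATTGG and CCACG with 1 base between them, was found upstream of Herpud1. The motif TGACGTGG, known as the unfolded protein response element, was found in none of the 9 windows. Across 32851 promoter windows of the same length the ER stress element was held by 0.119%, its variant by 0.0365% and TGACGTGG by 0.676%. A match says only that these letters are in the window. The short part CCACG alone was in 7 of the 9 windows and in 32.8% of all windows. The lines below give bases 160 to 1 before each start, 5′ to 3′ on the gene's strand, with the motif in capitals. The windows are chr8:94386269-94386428 for Herpud1, chr15:88819486-88819645 for Creld2 and chr19:6046416-6046575 for Syvn1, all on the forward strand. The Creld2 motif is on the strand opposite the gene, and its window is shared with the neighbouring gene Alg12.
Herpud1: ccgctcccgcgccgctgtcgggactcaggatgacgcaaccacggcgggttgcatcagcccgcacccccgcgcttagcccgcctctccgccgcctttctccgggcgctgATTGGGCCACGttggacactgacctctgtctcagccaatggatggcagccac
Creld2: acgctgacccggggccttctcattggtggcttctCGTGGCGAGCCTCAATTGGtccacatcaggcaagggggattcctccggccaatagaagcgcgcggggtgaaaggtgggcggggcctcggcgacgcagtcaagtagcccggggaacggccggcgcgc
Syvn1: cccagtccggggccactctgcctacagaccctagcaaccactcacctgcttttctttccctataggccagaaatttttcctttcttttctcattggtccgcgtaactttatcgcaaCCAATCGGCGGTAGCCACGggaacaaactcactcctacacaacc

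Library totals ranged from 19241780 to 29949173 counts, and each of the 10 genes had between 468 and 4868 counts in every library. Levels are given as CPM, each count relative to a library total scaled by TMM, which equalises the bulk of genes between libraries, with n = 3 in each group. Changes are log2 values at 30 h minus day 0 from edgeR's quasi-likelihood test over all 16150 genes that passed a low-count filter, and a gene is called changed at an adjusted p under 0.05. The spread was wider at 30 h, with a median coefficient of variation of 19.8% per gene against 6.4% at day 0. Of the 30 h libraries, replicate 3 stood apart by transcript length, as described with Sdf2l1. The cells differed in makeup as well: all 10 erythroid markers were higher at 30 h, summing to 116331 to 168837 CPM against 1542 to 1707 CPM at day 0. All 10 hepatoblast markers were lower, at 784 to 2288 CPM against 13412 to 15126 CPM. All 8 endothelial markers were lower, at 37.1 to 49.5 CPM against 215 to 248 CPM, and so were 7 of 8 mesenchymal markers, at 33.6 to 89.9 CPM against 1540 to 1960 CPM. Of B lymphoid and plasma cell markers, the last an ER-rich type, 3 of 6 tested were lower and none higher, at 17.5 to 22.8 CPM against 43.3 to 44.5 CPM, and macrophage markers split into 3 higher and 3 lower of 8. Of granulocyte and mast cell markers 4 of 6 tested were lower and none higher, at 1091 to 1245 CPM against 2586 to 2669 CPM. Of megakaryocyte markers 1 of 6 was higher and 3 lower, at 560.4 to 956 CPM against 534 to 632 CPM. Defining markers were near 0 in places, with Emcn of endothelium at 1, 0 and 2 counts in the 30 h libraries. The part of these markers in the results that follow was not tested, and in bulk RNA fewer cells of a type and less RNA per cell cannot be told apart. Nothing in the labels gives separate animals or cultures to the libraries, so the spread behind each p-value may be technical.

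The IRE1 and ATF6 genes did not move as a block. Of the 10 genes, 4 were higher at 30 h (Ern1, Atf6, Edem1 and Sdf2l1), against 34.4% of all genes tested, and 1 was lower (Atf6b), against 40.1%. The other 5, namely Xbp1, Herpud1, Sel1l, Syvn1 and Creld2, did not pass the test. Calls in either direction were thus made for 5 of 10 genes, where 74.5% of all genes tested were called. The groups did not overlap for 6 of the 10 genes, against 79.7% of all genes. In 5 of them (Ern1, Atf6, Edem1, Sdf2l1 and Herpud1) the 30 h libraries were the higher ones, against 36.3% of all genes, and in 1 (Atf6b) the lower ones, against 43.4%. Their median log2 change was 0.08, beside -0.09 for all genes tested, and their summed level was 920 to 928 CPM at 30 h against 783 to 826 CPM at day 0.

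**Figure D1:**
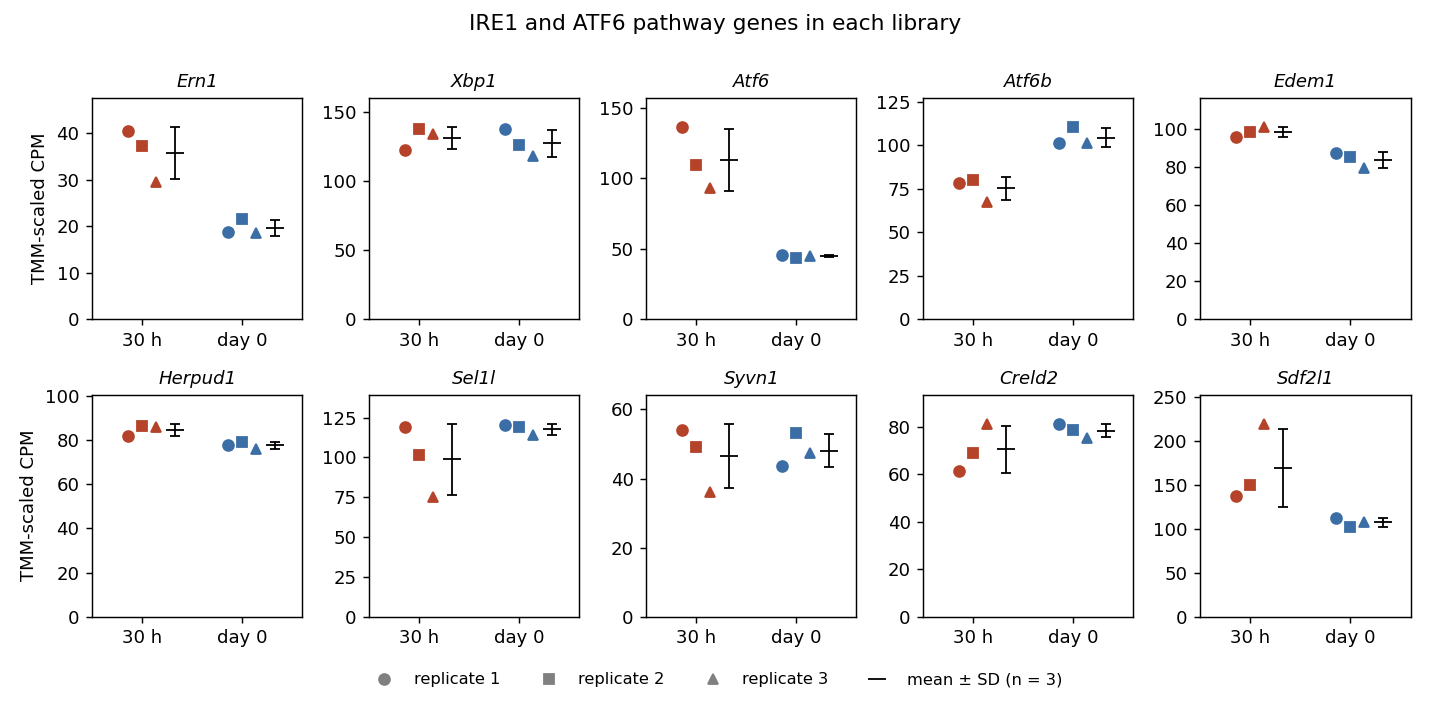
TMM-scaled CPM of each of the 10 genes in the 3 libraries at 30 h (left) and the 3 at day 0 (right), with a symbol per replicate and the mean ± SD beside them (n = 3). Atf6, Ern1 and Sdf2l1 lie higher at 30 h in every library, Atf6b lies lower, and Xbp1, Sel1l, Syvn1 and Creld2 overlap between the groups.

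Among the sensors, Atf6 and Ern1 were higher at 30 h and Atf6b was lower, a direction that turned for Atf6b when GC trends were removed. Atf6 encodes the membrane-bound factor itself (chr1:170704674-170867771, reverse strand). It stood at 137, 109.9 and 92.9 CPM in 30 h replicates 1, 2 and 3, against 45.5, 43.9 and 45.2 CPM in the day 0 libraries. Every 30 h library was above every day 0 library, and the 30 h values were spread far more widely than those at day 0. Atf6 was 2.52-fold higher, a log2 change of 1.34 (95% interval 1.00 to 1.67, edgeR adjusted p = 8.41e-05). It was the largest change of the 10 genes with the scaling used here, and its log2 change exceeded that of 85.5% of the genes tested. The call held under each of 10 other settings, with log2 changes of 0.85 to 1.54, and with each of the 6 libraries left out.

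Atf6b encodes the paralog of ATF6, a membrane-bound factor with weaker activity (chr17:34647146-34655074, forward strand). Its level was 78.3, 80.1 and 67.4 CPM at 30 h, against 101, 110.7 and 101.5 CPM at day 0. The groups did not overlap, and Atf6b fell by 0.47 on the log2 scale (95% interval -0.72 to -0.23, edgeR adjusted p = 0.00364). The direction held under each library scaling and with each library left out. It turned when the GC trend of each library was removed, to a log2 change of 0.28 (edgeR adjusted p = 0.03). Atf6b transcripts are GC-rich, at 61.0% against 45.1% for Atf6, and which setting is nearer the true change was not tested.

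Within a library the ratio of Atf6 to Atf6b counts does not depend on scaling, though it does depend on GC trends. Its log2 value was 0.81, 0.46 and 0.46 at 30 h, and -1.15, -1.33 and -1.17 at day 0. Atf6 counts thus exceeded those of Atf6b in every 30 h library and were below them in every day 0 library. The difference was 1.79, and an exact permutation test (two-sided) gave p = 0.1, as low as 3 libraries against 3 can go. With GC trends removed, the fitted log2 changes of Atf6 and Atf6b were 0.81 apart, against 1.81 with TMM alone.

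Ern1 encodes IRE1, the kinase and nuclease that cuts Xbp1 mRNA (chr11:106394650-106487852, reverse strand). It stood at 40.5, 37.3 and 29.5 CPM at 30 h, against 18.8, 21.6 and 18.5 CPM at day 0. The groups did not overlap, and Ern1 was 1.82-fold higher, a log2 change of 0.86 (95% interval 0.53 to 1.19, edgeR adjusted p = 0.000769). The call held in 9 of 10 other settings and with each library left out. With libraries scaled by their totals only, the log2 change was 0.38 and the edgeR adjusted p = 0.0512.

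Xbp1, the substrate of IRE1 and the transcription factor gene of this branch (chr11:5520659-5525893, forward strand), was at nearly equal levels in the groups. Its level was 122, 138 and 134 CPM at 30 h, against 138, 127 and 118 CPM at day 0. The ranges overlapped almost fully, and the log2 change of 0.04 had a 95% interval of -0.19 to 0.28 (edgeR adjusted p = 0.714). Totals-only scaling gave -0.45 (edgeR adjusted p = 0.00512), with the median of all genes at -0.58. Removal of length and GC trends together gave 0.22 (edgeR adjusted p = 0.0414). The amount of cut Xbp1 mRNA was not measured by these counts.

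Among 9239 genes with a mean of at least 10 CPM, those whose centred log2 CPM over the 6 libraries lay nearest to that of Xbp1 were Hmgn2, Amdhd2, Tsc22d1, Cops7b and Suv39h2. Their Euclidean distances on that scale were 0.108, 0.12, 0.124, 0.125 and 0.126. None of these genes belongs to the lists of the unfolded protein response used here. Those lists hold a small share of the 9239 genes, so their absence here says little about Xbp1. Xbp1 hardly changed between the groups, and these nearest genes had log2 changes of -0.01 to 0.1.

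Of the 4 ER-associated degradation genes in the list, Edem1 passed the test by a narrow margin and the other 3 did not pass it. Edem1 encodes a lectin-like protein that passes misfolded glycoproteins to degradation (chr6:108828641-108859356, forward strand). It stood at 96.1, 98.5 and 101.5 CPM at 30 h, against 87.4, 85.5 and 79.5 CPM at day 0. The groups did not overlap and the replicates of each lay close together, yet the difference was small. Edem1 was 1.17-fold higher, a log2 change of 0.23 (95% interval 0.02 to 0.44, edgeR adjusted p = 0.0474). The call was lost in 6 of 10 other settings, reversed in totals-only scaling, and lost with 30 h replicate 2 or any day 0 library left out (edgeR adjusted p = 0.119 to 0.226).

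Herpud1 encodes a membrane adaptor of the ubiquitin ligase complex for ER-associated degradation and holds the variant element shown above (chr8:94386438-94395377, forward strand). It was at 81.8, 86.5 and 86.3 CPM at 30 h, against 77.8, 79.5 and 76.1 CPM at day 0. Every 30 h library was above every day 0 library, but by little. The log2 change of 0.13 had a 95% interval of -0.08 to 0.33 (edgeR adjusted p = 0.221). Totals-only scaling gave -0.36 (edgeR adjusted p = 0.00683).

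Syvn1 encodes HRD1, the ubiquitin ligase of that complex, and Sel1l encodes its partner, which binds HRD1 and recruits substrates. Sel1l (chr12:91806043-91849157, reverse strand) was at 119, 102 and 75.1 CPM at 30 h, against 120.2, 119 and 114 CPM at day 0. Only 30 h replicates 2 and 3 lay below all day 0 libraries. Its log2 change was -0.25 (95% interval -0.63 to 0.12, edgeR adjusted p = 0.187), and without 30h replicate 1 it was -0.36 (edgeR adjusted p = 0.0279). Upper-quartile scaling gave -0.40 (edgeR adjusted p = 0.0181). Over 10 other settings the Sel1l log2 change was -0.74 to -0.06, and it passed the threshold in 2 of them.

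Syvn1 (chr19:6046576-6053712, forward strand) was at 54.2, 49.2 and 36.1 CPM at 30 h, against 43.6, 53.1 and 47.3 CPM at day 0. The 30 h libraries lay both above and below the day 0 range, and the log2 change was -0.05 (95% interval -0.42 to 0.33, edgeR adjusted p = 0.812). Its direction was not stable, with -0.53 under totals-only scaling (edgeR adjusted p = 0.0226) and 0.43 with length and GC trends removed (edgeR adjusted p = 0.0159). Syvn1 overlaps Mrpl49 on the other strand by 91 bases. Mrpl49 had 2002 to 3075 counts per library, and reads from the overlap may not be separated.

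The remaining genes encode soluble ER proteins that are raised by ATF6 and XBP1s. Sdf2l1 encodes a partner of the chaperone BiP complexes (chr16:17130138-17132383, reverse strand). It stood at 137, 151 and 219.9 CPM at 30 h, against 113, 103 and 107 CPM at day 0. All 30 h libraries were above all day 0 libraries, and 30 h replicate 3 was far above the other two. Sdf2l1 was 1.57-fold higher, a log2 change of 0.65 (95% interval 0.25 to 1.06, edgeR adjusted p = 0.00985). Without 30h replicate 3 it was 0.42 (edgeR adjusted p = 0.000228). The call was lost under totals-only scaling (0.16, edgeR adjusted p = 0.404), upper-quartile scaling (0.54, edgeR adjusted p = 0.0577) and removal of the length trend (0.05, edgeR adjusted p = 0.677).

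Creld2 encodes a disulfide-handling ER protein and holds the ER stress element shown above (chr15:88819646-88826683, forward strand). It was at 61.5, 68.8 and 81.0 CPM at 30 h, against 81.1, 78.8 and 75.4 CPM at day 0. Only 30 h replicate 3 reached the day 0 range. Its log2 change was -0.16 (95% interval -0.43 to 0.12, edgeR adjusted p = 0.264), and without 30h replicate 3 it was -0.27 (edgeR adjusted p = 0.00635). Removal of the length trend gave -0.53 (edgeR adjusted p = 0.000414). Over 10 other settings the Creld2 log2 change was -0.65 to 0.03, and it passed the threshold in 3 of them.

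Length and replicate 3 moved together at 30 h. Relative to the mean of 30 h replicates 1 and 2, replicate 3 was higher by 0.61 in Sdf2l1 and 0.32 in Creld2, the shortest of the 10 transcripts, on the log2 scale. It was lower in Sel1l, Syvn1, Atf6 and Ern1, at -0.55, -0.52, -0.40 and -0.40. Not every gene followed length: Edem1, with 6453 bases, was at 0.06, and Atf6b, with 2757 bases, at -0.23. Over the 10 genes, Pearson's r of this difference with log2 exon length was -0.84, a description over genes that share the same libraries. Protein-coding genes as a whole showed the same order. Split into 5 classes of about equal size by length, their median difference was 0.28 in the shortest class (median 1774.5 bases) and -0.36 in the longest (9841 bases). The same contrast within day 0 gave -0.02 to 0.02 in these classes. The log2 change at 30 h minus day 0 fell with length too. Its class medians were 0.1, -0.22, -0.25, -0.28 and -0.31 from the shortest to the longest. Removal of the length trend was chosen after these libraries had been seen, and the part of length in the Sdf2l1 and Creld2 values was not tested.

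**Figure D2:**
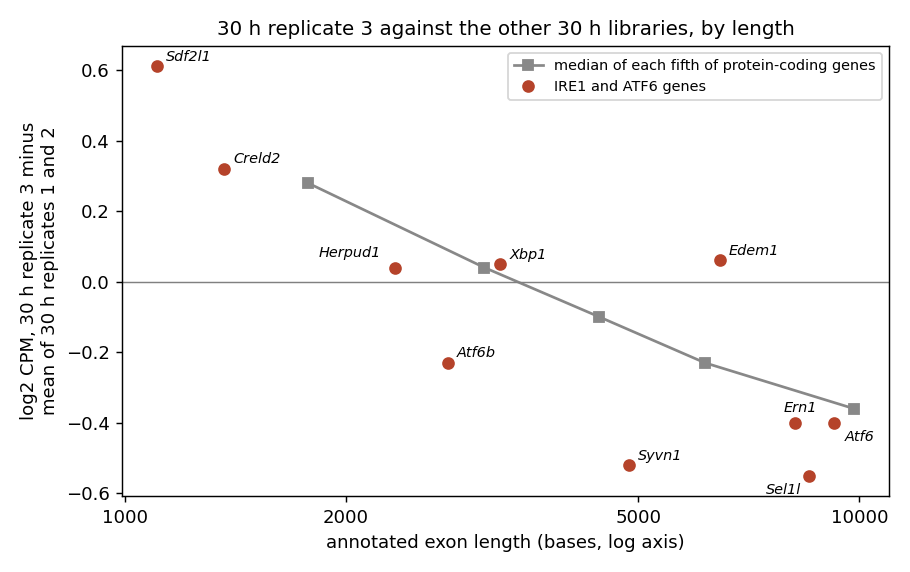
Log2 CPM of 30 h replicate 3 minus the mean of 30 h replicates 1 and 2 (vertical axis) against annotated exon length in bases (log axis), for the 10 genes (points) and as medians of protein-coding genes in 5 length classes (line). The short genes Sdf2l1 and Creld2 lie at 0.61 and 0.32, and Sel1l, a long one, at -0.55.

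Per kilobase of annotated exon, Sdf2l1 was the most abundant of the 10 transcripts and Ern1 the least abundant in both groups. Sdf2l1 was at 153 ± 40.0 CPM per kb at 30 h and 97.1 ± 4.66 at day 0. Ern1 was at 4.38 ± 0.695 CPM per kb at 30 h and 2.40 ± 0.206 at day 0 (SD, n = 3 each). Below Sdf2l1, the order at 30 h was Creld2, Xbp1, Herpud1, Atf6b, Edem1, Atf6, Sel1l, Syvn1 and Ern1, where the replicate ranges of Atf6 and Sel1l, and of Sel1l and Syvn1, overlapped. At day 0 it was Creld2, Xbp1, Atf6b, Herpud1, Sel1l, Edem1, Syvn1, Atf6 and Ern1, where Xbp1 and Atf6b, and Sel1l and Edem1, overlapped. Atf6 stood at 12.3 ± 2.40 CPM per kb at 30 h, level with Sel1l, and at 4.86 ± 0.0909 at day 0, below every gene of the list but Ern1. Atf6b stood at 27.3 ± 2.48 CPM per kb at 30 h and 37.9 ± 1.95 at day 0, above Atf6 in both groups.

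Because scaling moved the median of all genes by -0.49 under totals only and by -0.14 under upper quartile, changes were also read relative to that median. On this scale Atf6 was 1.43 above the median gene, Ern1 0.95, Sdf2l1 0.74, Edem1 0.32, Herpud1 0.22, Xbp1 0.13 and Syvn1 0.04. Creld2 was at -0.07, Sel1l at -0.16 and Atf6b at -0.38. Across 4 scalings and the fit with no filter, Atf6 lay between 1.39 and 1.43 and Xbp1 between 0.10 and 0.14. A scaling shifts each gene and the median nearly alike, so agreement across the scalings was fixed in advance. Removal of GC or length trends, which can move a gene against the median, was not among these settings.

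**Figure D3:**
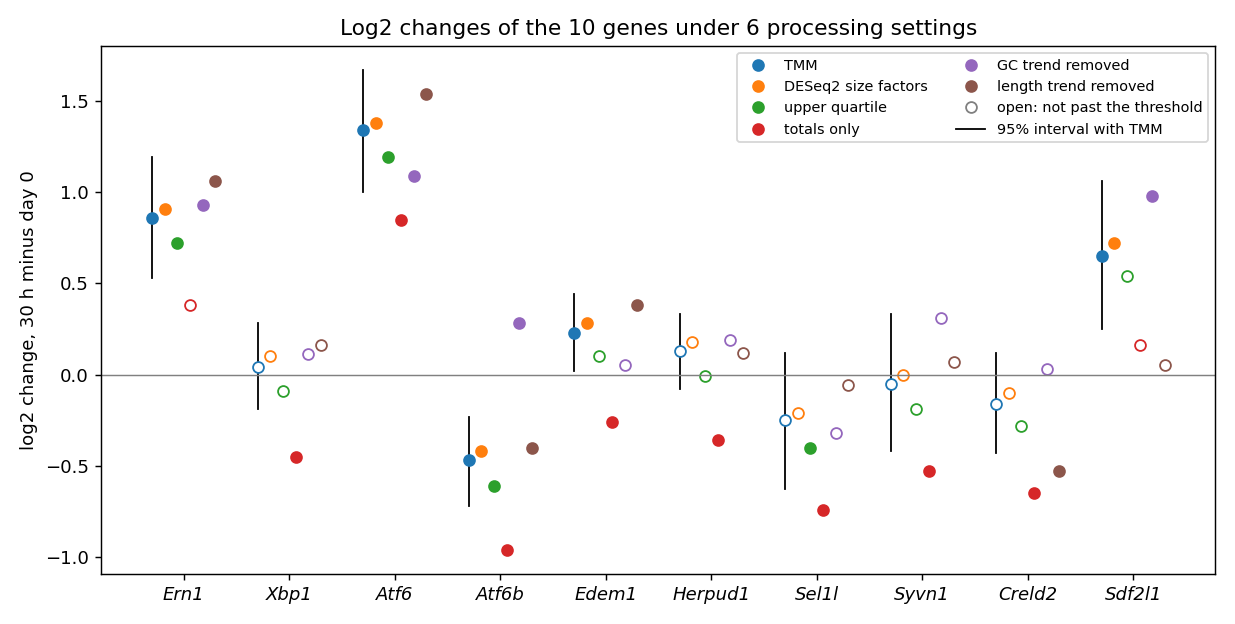
Log2 change at 30 h minus day 0 (vertical axis) of each of the 10 genes under 6 processing settings, with filled points past an adjusted p of 0.05, open points not past it, and black lines for the 95% interval with TMM. Atf6 is filled and above 0 throughout, Atf6b turns to 0.28 with the GC trend removed, and Sdf2l1 drops to 0.05 with the length trend removed.

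The wider pathway was read from 108 further genes tested in 8 lists, of which 46 were higher, 34 lower and 28 neither, where 34.4% of all genes tested were higher and 40.1% lower. These shares also stand behind the counts of each list. ER chaperones and oxidoreductases, which fold new proteins and form their disulfide bonds, included 10 genes that fell and 6 that rose of 22, with a median log2 change of -0.18, and under totals only 14 fell and 1 rose. Hspa5, which encodes BiP, the chaperone that holds the sensors inactive and the standard ATF6 target, was at 872, 954 and 851 CPM at 30 h, against 1214, 1186 and 1182 CPM at day 0. The groups did not overlap, and Hspa5 fell by 0.42 on the log2 scale (edgeR adjusted p = 0.00326). It was lower under each of 10 other settings, with log2 changes of -0.91 to -0.29, and with each library left out.

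Among the other genes of the list that fell, Hsp90b1 (GRP94) was at 510 ± 27.5 CPM at 30 h and 691 ± 15.6 at day 0. Hyou1, a BiP exchange factor, was 2.51-fold lower, Pdia4, a disulfide isomerase, 2.53-fold lower, Txndc5, another such enzyme, 3.89-fold lower, and Calr, the lectin chaperone calreticulin, 1.84-fold lower. In the other direction, Ero1l, the oxidase that recharges disulfide isomerases, was 5.93-fold higher, at 518 ± 22.1 CPM at 30 h and 87.3 ± 2.36 at day 0 (edgeR adjusted p = 6.91e-07). Hepatoblasts secrete plasma proteins, and all 10 hepatoblast markers fell in the same libraries, whose part in the chaperone values was not tested.

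Of the BiP co-chaperones Dnajb9, Dnajb11 and Dnajc3, the first 2 were higher and Dnajc3 did not pass the test. Dnajb11 was at 197 ± 10.1 CPM at 30 h and 126 ± 1.59 at day 0, 1.57-fold higher (edgeR adjusted p = 0.000258), and its call was lost under totals only (0.16, edgeR adjusted p = 0.121). Dnajb9, a standard XBP1s target, was at 26.6, 29.1 and 32.0 CPM at 30 h, against 20.6, 19.0 and 19.0 CPM at day 0. The groups did not overlap, and it was 1.5-fold higher (edgeR adjusted p = 0.00159), but the log2 change of 0.58 became 0.06 with the GC trend removed (edgeR adjusted p = 0.622). Totals-only scaling gave 0.09 (edgeR adjusted p = 0.467), and the Dnajb9 call held in only 6 of 10 other settings. Dnajc3 (p58IPK) was at 104 ± 5.85 CPM at 30 h and 99.4 ± 2.75 at day 0, a log2 change of 0.06 with a 95% interval of -0.15 to 0.27. It became -0.34 with the GC trend removed (edgeR adjusted p = 0.00939) and -0.43 with totals only. Manf, a secreted ER stress protein, was at 255 ± 52.5 CPM at 30 h and 215 ± 11.1 at day 0 (edgeR adjusted p = 0.168). It had a log2 change of 0.37 once the length trend was removed (edgeR adjusted p = 0.029) and 0.42 without 30 h replicate 1 (edgeR adjusted p = 0.0397).

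Other genes of ER-associated degradation, 23 beyond the 4 above, were higher in 12 cases and lower in 3, with a median log2 change of 0.31. Under totals only 10 were higher and 10 lower, with a median of -0.18. Rnf139, a membrane ubiquitin ligase, was 2.83-fold higher, at 134 ± 5.28 CPM at 30 h and 47.2 ± 2.40 at day 0. Derl3, a derlin raised by XBP1s, was scarce, at 0.402 ± 0.168 CPM at 30 h and 0.893 ± 0.163 at day 0. It was lower (edgeR adjusted p = 0.0171), a call that held in only 6 of 10 other settings. Among the losses was removal of the GC trend (edgeR adjusted p = 0.138). The call was also lost without day 0 replicate 1 (edgeR adjusted p = 0.0601) or without 30 h replicate 1 (edgeR adjusted p = 0.0722). Rnf139 encodes a ligase distinct from HRD1. Among the 10 genes, those of the HRD1 complex, Syvn1, Sel1l and Herpud1, did not pass the test. That does not cover parts of the complex outside the 10 genes.

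Of 24 genes of ER translocation and N-glycosylation, 8 were higher and 7 lower, with a median log2 change of 0.13. Under totals only 5 were higher and 15 lower, and with the GC trend removed the median was -0.16. Sec62, a translocation subunit, was 3.15-fold higher, while Sec61a1, the channel itself, was 2.15-fold lower and Rpn2, of the oligosaccharyl transferase, 1.58-fold lower. Sec61g, a small channel subunit, was 5.98-fold higher, but at low levels of 7.77 ± 2.39 CPM at 30 h and 1.29 ± 0.136 at day 0.

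Partners of IRE1 went both ways, 2 of 6 tested being higher and 2 lower, with a median log2 change of 0.12 that became -0.37 under totals only and, with GC trends removed, -0.19. Traf2, the adaptor that couples IRE1 to stress kinases, was at 67.8 ± 3.57 CPM at 30 h and 49.9 ± 0.0712 at day 0 (edgeR adjusted p = 0.00235), with a log2 change of 0.44 that was -0.05 under totals only. Rtcb, the ligase that joins the cut Xbp1 mRNA, was at 165 ± 15.6 CPM at 30 h and 276 ± 3.58 at day 0, a log2 change of -0.75 (edgeR adjusted p = 0.000251). Map3k5 (ASK1), the stress kinase that follows Traf2, was at 6.35 ± 1.73 CPM at 30 h and 11.2 ± 0.486 at day 0 (edgeR adjusted p = 0.006). Tmbim6, an inhibitor of IRE1, averaged 486 CPM at 30 h and 484 CPM at day 0 (edgeR adjusted p = 0.962), and its log2 change was -0.48 under totals only (edgeR adjusted p = 0.0018) and 0.23 with length and GC trends removed (edgeR adjusted p = 0.0236). Ern2, the epithelial copy of IRE1, had a single count over the 6 libraries and was not tested.

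Of 9 genes for ATF6 processing, its relatives and NF-Y, 5 were lower and 2 higher, with a median log2 change of -0.64. Both processing proteases fell, Mbtps1 by 0.64 on the log2 scale (109 ± 17.3 CPM at 30 h and 170 ± 8.02 at day 0, edgeR adjusted p = 0.00247) and Mbtps2 by 0.66 (edgeR adjusted p = 0.00449). Atf6 mRNA was thus higher while the mRNAs of its proteases were lower in the same libraries. Creb3l2, a relative of ATF6 that the same proteases cleave, was 4.64-fold lower, and Nfyb, a subunit of NF-Y, was 2.15-fold higher.

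Known substrates of IRE1-dependent mRNA decay were read as a further sign of IRE1 nuclease action, and 5 of 7 were lower and 2 higher, with a median log2 change of -2.34. Bloc1s1, the most general of them, was at 2.02, 2.50 and 4.03 CPM at 30 h, against 1.07, 0.837 and 0.668 CPM at day 0. It was higher in every 30 h library (log2 change 1.71, edgeR adjusted p = 0.00154), at low counts. Scara3, Sparc, Pdgfrb and Col6a1 had log2 changes of -5.17, -2.34, -3.48 and -4.96. Sparc, Pdgfrb and Col6a1 are genes of mesenchymal cells, whose markers fell in 7 of 8 cases in the same libraries, so decay and cell makeup cannot be told apart.

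The ATF4 and CHOP arm differed in size from the IRE1 and ATF6 genes. Of its 13 genes, 12 were higher and 1 lower, with a median log2 change of 2.99, against a median of 0.08 for the 10 IRE1 and ATF6 genes. Both lists were chosen with earlier results of these data known, so the contrast is a description only. The 10 genes also include the sensor genes Ern1, Atf6 and Atf6b, so the lists differ in kind. Ddit3, which encodes CHOP, was at 462, 466 and 557 CPM at 30 h, against 7.77, 6.58 and 6.65 CPM at day 0. It was 70.6-fold higher, and Trib3, a target of ATF4 and CHOP, was 152.5-fold higher (edgeR adjusted p = 2.35e-07 for each). Ppp1r15a, which encodes the GADD34 subunit that reverses eIF2α phosphorylation, was at 392 ± 19.5 CPM at 30 h and 21.5 ± 0.709 at day 0. Atf4 itself was at 1672 ± 239 CPM at 30 h and 211 ± 7.03 at day 0, and Psat1, of serine synthesis, was the gene that fell, by 0.78 on the log2 scale. These directions held under each of 10 other settings and with each library left out for Atf4, Ddit3 and Trib3.

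**Figure D4:**
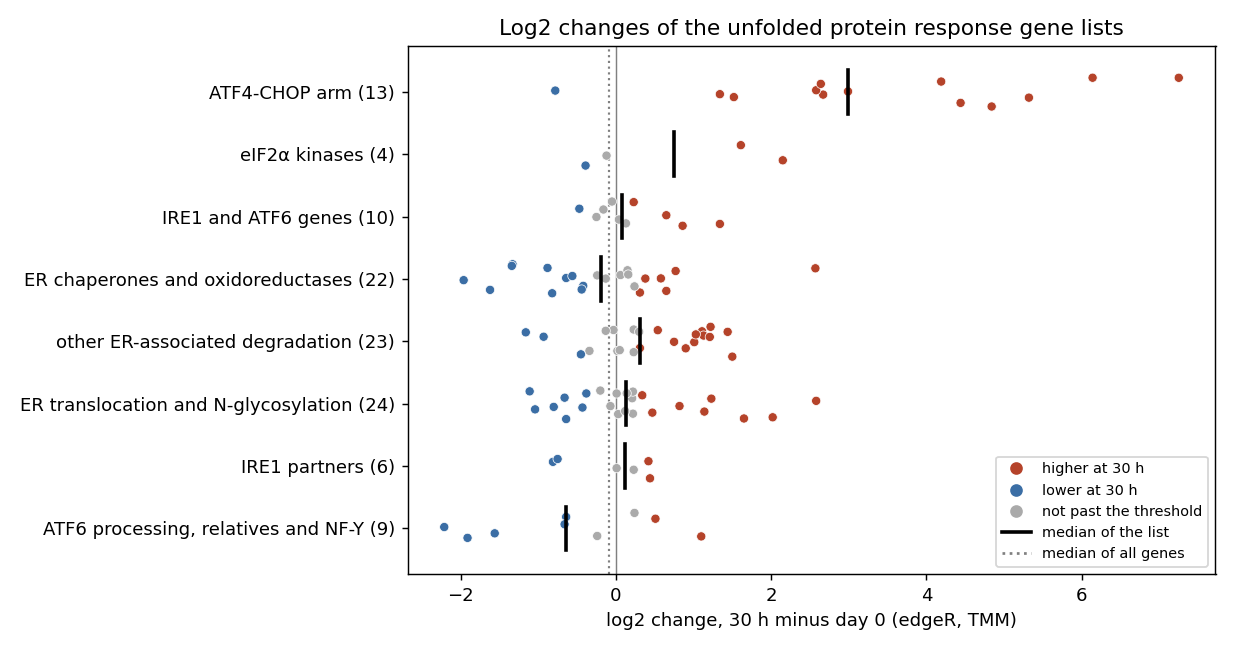
Log2 change at 30 h minus day 0 (horizontal axis) of each tested gene of the IRE1 and ATF6 list and of 7 other lists of the response, numbers tested in brackets, coloured by direction past an adjusted p of 0.05, with list medians as black bars and the median of all genes dotted. The ATF4 and CHOP arm has its median at 2.99, the IRE1 and ATF6 genes at 0.08 and the ER chaperones at -0.18. Substrates of IRE1-dependent mRNA decay, with a median of -2.34, are not drawn. The lists were chosen with earlier results of these data known.

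Set against each other within a library, Ddit3 and Hspa5 need no scaling. The log2 ratio of Ddit3 to Hspa5 counts was -0.92, -1.03 and -0.61 at 30 h, and -7.28, -7.49 and -7.47 at day 0. The difference was 6.56, and the same exact permutation test gave p = 0.1, its lower limit here. Among the eIF2α kinases, Eif2ak3, which encodes PERK, was at 15.4, 15.8 and 13.2 CPM at 30 h, against 15.8, 16.7 and 15.9 CPM at day 0. Its log2 change was -0.12 (95% interval -0.39 to 0.14, edgeR adjusted p = 0.352), and -0.61 with totals only (edgeR adjusted p = 0.00245). Eif2ak1, which encodes HRI, was 3.04-fold higher, at 353 ± 88.8 CPM at 30 h and 116 ± 3.83 at day 0 (edgeR adjusted p = 9.24e-05). Eif2ak2, which encodes PKR, was 4.45-fold higher, and Eif2ak4, which encodes GCN2, was lower by a narrow margin (edgeR adjusted p = 0.049) that was lost in 5 of 10 other settings, and with 30 h replicate 2 or any day 0 library left out (edgeR adjusted p = 0.0768 to 0.12).

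Genes that carry the ER stress element were then read whether or not they were in a list, so genes described above count again here. Either form of the motif was in the window of 49 genes, of which 25 were tested, and 11 of these were lower, against 40.1% of all genes, 6 higher, against 34.4%, and 8 neither. The forms differed in their counts: of 16 carriers of the full element 10 were lower and 1 higher, with a median log2 change of -0.50, and of 9 carriers of the variant 1 was lower and 5 higher, with a median of 0.52. The difference between the forms was seen in these values and was not tested. Of the 10 lower carriers of the full element, Hspa5, Calr, Hsp90b1, Canx, Pdia6 and Derl3 were already in the lists. The others, Spats2l, Acacb, Adcy3 and Zfp57, were scarce, at 0.733 to 1.66 CPM at 30 h. Creld2 and Alg12 count separately though they share a window, and neither passed the test. Among the IRE1 and ATF6 genes the carriers were Herpud1, Creld2 and Syvn1, and all 3 were among those that did not pass the test. Among ER chaperones, 6 of 17 genes with a window held the full element. Of these, Hspa5, Calr, Hsp90b1, Canx and Pdia6 fell, with log2 changes of -0.42, -0.88, -0.44, -0.56 and -0.82, and Dnajc3 did not pass the test. The ER chaperone Dnajb11 held the variant form and was higher, with a log2 change of 0.65. Hspa5 is the standard ATF6 target, and Dnajc3 is the exception among ER chaperones with the full element. The elements of both are printed here with 10 bases on either side. They lie at chr2:34772015-34772053 and chr14:118937817-118937855, both on the forward strand of GRCm38.p6.
Hspa5: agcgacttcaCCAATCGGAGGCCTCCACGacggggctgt
Dnajc3: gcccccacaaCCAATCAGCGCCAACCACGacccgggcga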

How the data were processed

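The authors deposited whole-number counts per gene, 1 file for each of 6 libraries. The submitters' processing notes list cutadapt (1.13), STAR, HTSeq (0.6.1p1), DESeq2 and build mm10, without settings, and the sources used here do not say whether strand was used. Of 54232 IDs, all but 67 had a symbol in GENCODE M21. The 10 genes and the pathway lists were chosen with earlier results of these data known.

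From these counts, edgeR 4.0.16 (R 4.3.3) tested 30 h against day 0 over the 16150 genes kept by filterByExpr. It used TMM scaling, a robust quasi-likelihood F test and Benjamini-Hochberg adjustment at 0.05. TMM factors were 0.82 to 0.87 at 30 h and 1.18 to 1.19 at day 0, and the biological coefficient of variation was 14.2%. Ratios within a library, with 0.5 added to each count, used exact permutation tests (scipy 1.17.1). Promoter windows came from RefSeq (GRCm38.p6), without chromosome 18. The edgeR steps were tested on simulated data in which far fewer genes changed than here and both groups had the same spread. That simulation could not check the scaling or the test under the changes and spread seen here.

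Named were the 10 genes, a set of pathway genes and, per list, the largest rise, the largest fall, the most abundant gene and that of lowest adjusted p. Pdgfrb, Col6a1, Canx, Pdia6 and Dnajb11 were named after their values were seen. An item that this rule names is not reported here. Alternatives were other scalings, no filter, DESeq2 1.42.0, a replicate block, removal of GC trends and leaving out each library. Removal of length trends was added after seeing the data.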

Additional observations from a re-analysis of the deposited data

How the results depend on the processing

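Of the 10 genes, the 4 higher and 1 lower became 1 and 7 when only library totals were used and 2 and 2 by upper quartile, while the DESeq2 Wald test gave 4 and 1. The number lower was 0 with the GC trend removed, with or without the replicate block, and 2 with the length trend removed; with length and GC trends removed together, 6 were higher and 1 lower. With each library left out, 3 to 4 were higher and 1 to 2 lower, 2 being lower without 30h replicate 1 or 3. Over the whole table, 3601 genes were higher with totals only, against 5553, and 5041 to 6233 were higher with each library left out. Of the further pathway genes, 56 were lower with totals only, against 34.

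With totals only, log2 changes turned to -0.45 in Xbp1, -0.36 in Herpud1, -0.26 in Edem1, -0.43 in Dnajc3, -0.05 in Traf2 and -0.48 in Tmbim6. The median turned to -0.40 in the 10 genes (-0.05 with upper quartile, -0.01 with no filter), -0.18 in other ER-associated degradation, -0.36 in ER translocation and -0.37 in IRE1 partners (-0.02 with upper quartile, -0.09 with no filter). The ER translocation median was -0.16 with the GC trend removed, -0.18 with the replicate block as well and -0.07 with length and GC trends removed. In the same 3 settings the IRE1 partners' median was -0.19, -0.19 and -0.01, Atf6b was at 0.28, 0.28 and 0.35, and Dnajc3 at -0.34, -0.34 and -0.22. Syvn1 was at 0.43 with length and GC trends removed. The cause was not tested.

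The replicate block left 3 genes higher and 1 lower, Edem1 losing its call (edgeR adjusted p = 0.112). Deviations of libraries with the same number correlated at -0.105, 0.105 and -0.029, so the numbers were not taken to pair the samples. In the paired form, the Atf6 to Atf6b ratio had p = 0.25 in the exact sign-flip permutation test. With a library left out that ratio differed by 1.68 to 1.85, and the Ddit3 to Hspa5 ratio by 6.44 to 6.65. A further 24 of 832 values, over 52 genes, changed sign or rounded to 0 with neither value past the threshold.

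Counts of 468 or more put the 10 genes within reach of the test, while Derl3, Bloc1s1, Scara3 and Sec61g rest on few counts. The 3 libraries a group, with a wide 30 h spread, limit all of these genes.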
